A study of Homo sapiens with 12 samples.

Results

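The genes described here encode the subunits of respiratory complex I in A375 and LOX-IMVI BR, both human metastatic melanoma cell lines. Members were all rows of the deposited count table whose symbol was NDUFA, NDUFB, NDUFC, NDUFS or NDUFV followed by digits alone, which gave 37 of 75253 rows. Cells of each line were given 6-thio-dG at 5 µM, BIBR1532 at 25 µM or a control, and each of the 6 groups held 2 libraries described as biological replicates. The nucleoside 6-thio-dG carries thioguanine and is built into telomeres by telomerase, and BIBR1532 is a small-molecule inhibitor of telomerase. The vehicle of the control, the length of exposure and the meaning of BR are not stated in the labels. Nothing in the labels says whether replicates were separate cultures, so the p-values measure the spread between these libraries. All libraries came from total RNA with a kit that keeps no strand.

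Complex I is the entry point of electrons from NADH into the respiratory chain of the inner mitochondrial membrane. A matrix arm oxidizes NADH and passes the electrons along iron-sulfur clusters to ubiquinone, and a membrane arm pumps protons. The core subunits of the matrix arm are nuclear-encoded, those of the membrane arm are encoded in mitochondrial DNA, and accessory subunits of both arms are needed for assembly and stability. Mitochondrially encoded transcripts were not analysed here, and in bulk RNA fewer cells with a transcript and less of it per cell cannot be told apart.

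Of the 37 members, 32 passed the filter on low counts and were tested among 29114 genes. The remaining 5 were NDUFA2, NDUFA3, NDUFB1, NDUFB2 and NDUFC1. NDUFB1 had 0 counts in all 12 libraries, NDUFB2 had 2, NDUFA3 10, NDUFA2 23 and NDUFC1 29 counts over the 12 libraries. These are subunits of the assembled complex, and the listed counts alone do not show that their transcripts were absent. NDUFA7, with 119 counts over the 12 libraries, and NDUFA4, with 71, passed the filter but lay close to the limit that 3 counts set. That limit was 0.103 to 0.272 CPM (counts scaled to the TMM-adjusted library total) among the libraries. NDUFA4 was first described as a complex I subunit and is now counted as a protein of complex IV. Some of the members share exons with other genes in the GENCODE annotation, so their counts cannot be assigned with certainty: 49.1% of the exon bases of NDUFS7, 48.5% of those of NDUFB8, 44.9% of those of NDUFB11 and 44.5% of those of NDUFA1 lay in exons of other genes. NDUFA5 and NDUFB4 each have 12 annotated pseudogenes, the most of any member, with which they can share reads.

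Library totals ran between 11813388 and 25822381 counts, of which the members took 0.132% to 0.266%. Markers of the melanocyte lineage summed to 10.1 to 27.3 CPM in the LOX-IMVI BR libraries and to 312 to 1460 CPM in the A375 libraries, and without SOX10, a transcription factor of that lineage, to 9.47 to 26.5 CPM and 17.4 to 59.5 CPM. Dedifferentiated melanoma markers (AXL, NGFR and EGFR) summed to 602 to 620 CPM in the LOX-IMVI BR control and 1540 to 1790 CPM in the A375 control. Without AXL these sums were 175 to 178 and 140 to 146 CPM, but NGFR and EGFR differed in opposite directions. NGFR had 0.151 and 0.319 CPM in the LOX-IMVI BR control and 56.3 and 114 CPM in the A375 control. EGFR had 177 and 174 CPM in the former and 84 and 32.1 CPM in the latter. With 6-thio-dG all 3 summed to 294 to 314 and 263 to 379 CPM, and with BIBR1532 to 1040 to 1070 and 1190 to 1260 CPM. TYR, an enzyme of pigment synthesis, was listed at 0 in the control and BIBR1532 libraries of both lines. DCT, another such enzyme, was at 0 in those of LOX-IMVI BR and at most at 0.194 CPM in A375. Leukocyte markers summed to at most 2.73 CPM and endothelial markers to at most 1.93 CPM in any library. Epithelial markers summed to 36.9 to 43.4 CPM in LOX-IMVI BR and 291 to 613 CPM in A375, nearly all of it KRT18 and KRT8. The other epithelial markers, EPCAM and CDH1, reached at most 0.47 and 0.224 CPM in any library. Fibroblast markers summed to 18.1 to 19.6 CPM in LOX-IMVI BR with 6-thio-dG and to 1620 to 1650 CPM in its control, nearly all of it COL1A1, a collagen chain: the other 4 markers summed to 3.05 to 3.66 CPM with 6-thio-dG and to 6.65 to 7.78 CPM in the control. The part of these markers in the results was not tested.

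Per kilobase of transcript, the most abundant members in the LOX-IMVI BR control were NDUFB10 at 263 CPM per kb, NDUFS8 at 115, NDUFV1 at 102 and NDUFB7 at 93.8 CPM per kb. In the A375 control the leading members included NDUFB7 at 430 CPM per kb, NDUFB11 at 223 and NDUFS8 at 208 CPM per kb. NDUFB10 and NDUFB7 are small accessory proteins of the distal membrane arm, NDUFS8 carries iron-sulfur clusters and NDUFV1 binds NADH and the flavin. Summed over all members, the LOX-IMVI BR libraries held 1295.9 and 1302.7 CPM with 6-thio-dG, 1471 and 1542 CPM with BIBR1532, and 1529.8 and 1477.2 CPM in the control. The A375 libraries held 2469.5 and 1909.1 CPM with 6-thio-dG, 2009.3 and 1937.3 CPM with BIBR1532, and 1661.6 and 3569.2 CPM in the control. The A375 control libraries therefore enclosed every treated A375 library in summed level.

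**Figure D1:**
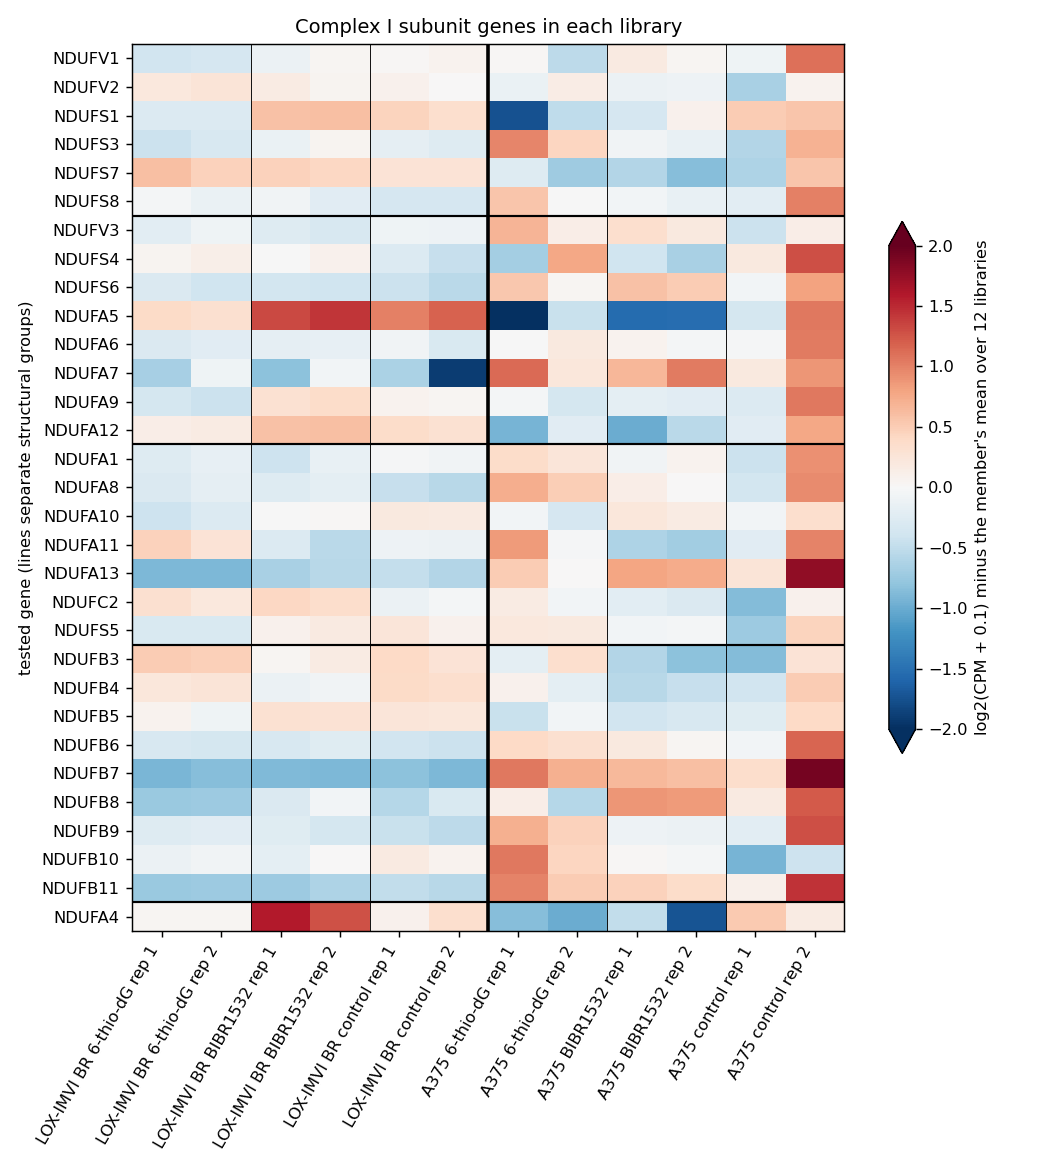
Level of 31 of the tested members in each library, as log2(CPM + 0.1) minus the mean of that member over the 12 libraries (colour scale, log2 units). Rows are grouped, top to bottom, into core matrix arm, accessory matrix arm, proximal membrane arm, distal membrane arm and NDUFA4, and the thick vertical line separates LOX-IMVI BR (left) from A375 (right). The column of A375 control replicate 2 stands above that of replicate 1 in 30 of 31 rows.

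The replicates of the A375 control differed in nearly every member. In replicate 2, 31 of the 32 tested members were higher than in replicate 1, with a median log2 difference of 1.12, while 55.3% of symbol-named genes were higher, with a median of 0.13. The difference exceeded 1 in 20 members and in 13.1% of symbol-named genes. NDUFB7 had the largest difference at 1.56, NDUFS1 one of 0.05, and NDUFA4, with few counts, one of -0.43. Shorter transcripts were higher in replicate 2 in general: the median over symbol-named genes was 0.73 for transcripts under 1000 bases and -0.24 for those of 4000 bases or more. Member medians were higher in both classes, with values of 1.16 for the 13 members of the shortest class and 0.60 for the 6 members of the longest. These classes use the longest annotated coding transcript of each gene. By median coding transcript length, those 6 members ran from 1046 bases for NDUFB5 to 4502.5 bases for NDUFA9, so their class may overstate the length expressed. Complex II (4 of 4 genes tested, median 0.61), complex III (8 of 8, 1.38), complex IV (6 of 6, 1.34) and complex V (12 of 12, 1.06) were also higher in replicate 2 in every gene tested. The median member difference was -0.29 between the 6-thio-dG replicates of A375, -0.07 between its BIBR1532 replicates, and 0.02, 0.05 and -0.05 between the LOX-IMVI BR replicates with 6-thio-dG, with BIBR1532 and in the control. The A375 comparisons below are therefore also given without each control library, and the cause of the difference was not tested.

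**Figure D2:**
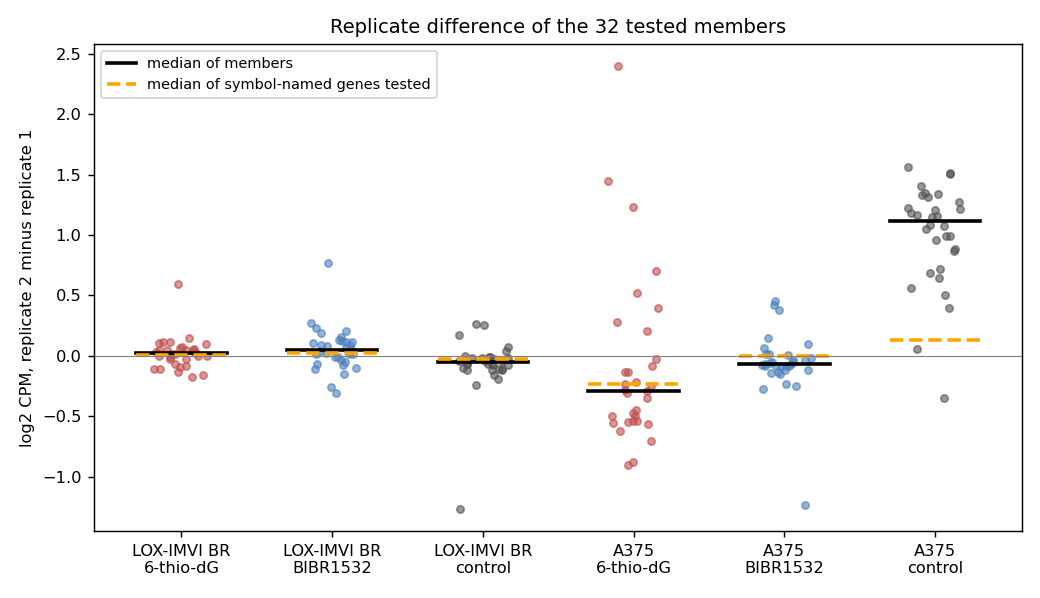
Log2 CPM of replicate 2 minus that of replicate 1 for each tested member (points), by group, with the median of the members (black line) and of all tested genes with symbols (orange dashed line). In the A375 control the member median was 1.12 and that of symbol-named genes 0.13, whereas in the LOX-IMVI BR groups both medians lay near 0.

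In A375 given 6-thio-dG, NDUFB10 rose and NDUFS1 fell, and no other member of complex I was called by edgeR's quasi-likelihood test at an adjusted p under 0.05. These 2 of 32 members compare with 18.1% called among all genes tested. NDUFB10, an accessory subunit of the distal membrane arm, had 353 and 229 CPM with 6-thio-dG, against 89.4 and 127 CPM in the control. Both treated libraries were above both controls (log2 fold change 1.43 ± 0.30 SE, adjusted p = 0.00583). NDUFS1, the largest core subunit, carries iron-sulfur clusters and had 22.5 and 53.1 CPM with 6-thio-dG, against 107 and 111 CPM in the control. Both treated libraries lay below both controls, although they differed from each other more than the controls did (log2 fold change -1.53 ± 0.36, adjusted p = 0.0104). Both calls remained whichever of the 12 libraries was left out, with adjusted p between 0.000256 and 0.023 for NDUFB10 and between 5.63e-05 and 0.026 for NDUFS1. When a trend with transcript GC content was removed from each library, NDUFB10 kept a log2 fold change of 1.42 (adjusted p = 9.97e-05), while that of NDUFS1 was -0.81 (adjusted p = 0.00203). In the A375 libraries alone neither passed, with adjusted p = 0.0628 for NDUFB10 and 0.0887 for NDUFS1, and 0 of 31 members were called there, against 5.11% of all genes. With GC offsets in that fit the adjusted p was 0.0118 for NDUFB10 and 0.0468 for NDUFS1.

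The promoters of these genes are shown because they were the members called in opposite directions and called without either A375 control library. The sequences are from RefSeq on GRCh38.p14 and hold 250 bases before and 50 bases after the start of the gene, on the strand of the gene. The NDUFB10 window is chr16:1959288-1959587 (+) and the NDUFS1 window is chr2:206159395-206159694 (-). Capitals mark a match to CCGGAAG, a motif of the ETS family to which GABPA belongs, read on the opposite strand.
NDUFB10: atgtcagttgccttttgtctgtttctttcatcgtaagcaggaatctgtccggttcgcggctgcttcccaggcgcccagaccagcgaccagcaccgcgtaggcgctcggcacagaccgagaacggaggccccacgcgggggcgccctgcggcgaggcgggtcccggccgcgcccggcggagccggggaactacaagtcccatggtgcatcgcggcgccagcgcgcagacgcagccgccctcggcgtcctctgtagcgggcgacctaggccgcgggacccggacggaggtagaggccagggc
NDUFS1: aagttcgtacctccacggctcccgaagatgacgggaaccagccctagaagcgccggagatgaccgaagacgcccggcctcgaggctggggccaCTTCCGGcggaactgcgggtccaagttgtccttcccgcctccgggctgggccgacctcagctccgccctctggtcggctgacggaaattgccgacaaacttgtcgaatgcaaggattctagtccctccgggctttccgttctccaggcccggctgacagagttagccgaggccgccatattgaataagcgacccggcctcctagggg
The NDUFS1 window had this match and the NDUFB10 window had none of the motifs searched. Windows were searched on both strands for CCGGAAG, for the NRF1 motif and for the YY1 motif AAGATGGC. No motif contains another, and each was counted separately. NRF1, GABPA and YY1 are factors known to act at nuclear genes for respiratory chain proteins. Among 38 windows of 31 members found in the table, 6 held the NRF1 motif (15.8%, against 5.78% of 35116 windows of all genes), 5 held the ETS motif (13.2%, against 10.3%) and 7 held the YY1 motif (18.4%, against 2.89%). The NRF1 motif was in windows of NDUFA3, NDUFA8, NDUFA9, NDUFA11, NDUFA12 and NDUFB4, and the YY1 motif in windows of NDUFA3, NDUFA6, NDUFA7, NDUFA9, NDUFB8, NDUFS4 and NDUFS7. Some members have several windows, and a match is a description of these letters.

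**Figure D3:**
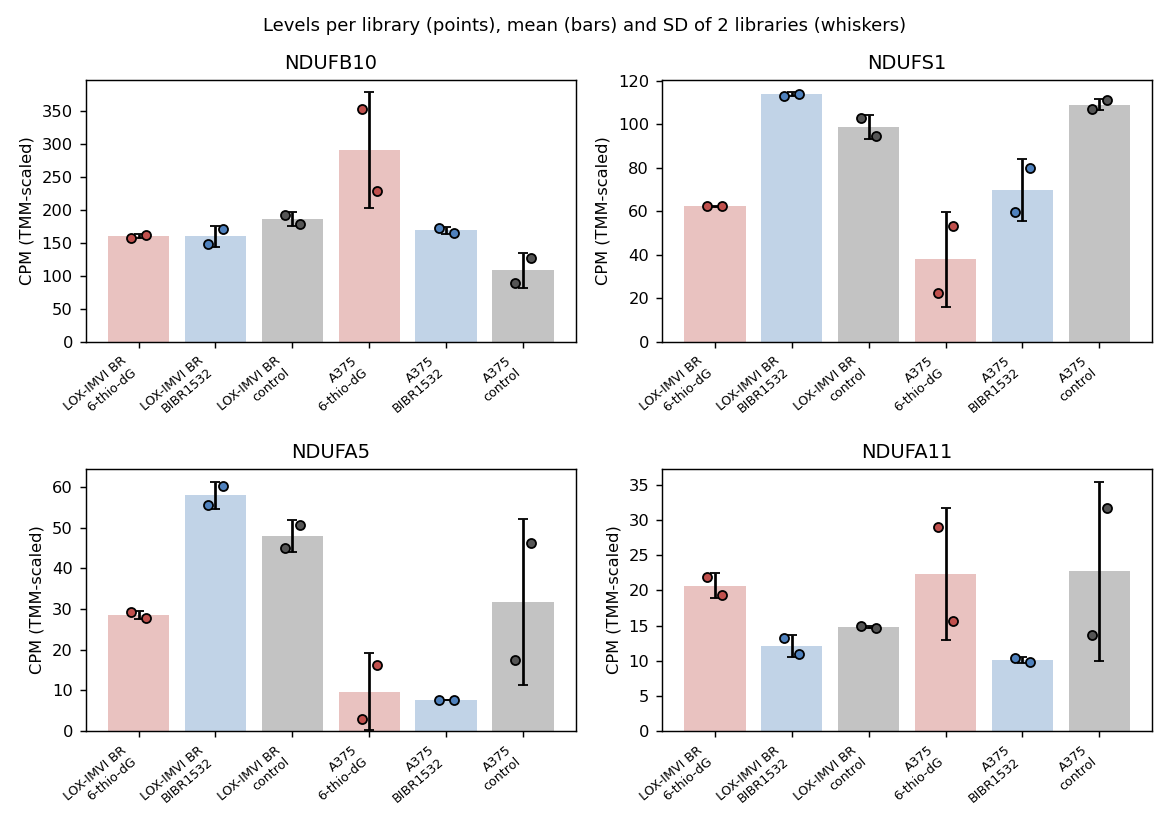
TMM-scaled CPM of NDUFB10, NDUFS1, NDUFA5 and NDUFA11 in each library (points), with the mean (bars) and the SD of 2 libraries (whiskers), for each line with 6-thio-dG, BIBR1532 and control. NDUFB10 was highest in A375 with 6-thio-dG (353 and 229 CPM), where NDUFS1 was lowest (22.5 and 53.1 CPM).

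NDUFA5, an accessory subunit of the matrix arm, had 3.01 and 16.3 CPM in A375 with 6-thio-dG, against 17.4 and 46.3 CPM in the control, and did not pass (log2 fold change -1.70 ± 0.57, adjusted p = 0.0536). The treated libraries were both below the controls, but the upper treated and the lower control library nearly met. Among other core subunits, NDUFV1 had 153 and 105 CPM with 6-thio-dG, against 141 and 321 CPM in the control. NDUFS3 had 84.0 and 57.7 CPM against 28.5 and 68.9 CPM, and NDUFS8 had 122 and 82.6 CPM against 71.4 and 167 CPM. NDUFS7, which carries the last iron-sulfur cluster before ubiquinone, had 14.9 and 10.9 CPM against 11.7 and 26.3 CPM, and NDUFV2 had 7.52 and 9.13 CPM against 5.23 and 8.69 CPM. In each of these 5 the groups overlapped. Treated and control libraries did not overlap in 5 of 32 members, against 46.3% of all genes tested. The median log2 fold change of the members was -0.27, that of symbol-named genes -0.25 and that of all genes 0.03. With upper-quartile factors these medians were 0.17, 0.16 and 0.43, so the sign of the member median followed the scaling while its distance from the symbol-named genes did not.

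The remaining calls in this comparison depended on which A375 control was used. Without control replicate 1, 12 members were called lower (9.7% of all genes were) and the member median was -0.70, against -0.28 for symbol-named genes. Without control replicate 2, 6 members were called higher (7.23% of all genes were) and 1 lower, and the member median was 0.37, against -0.09 for symbol-named genes. NDUFB9, an accessory subunit of the distal membrane arm, was called lower in the first of these fits and higher in the second. NDUFB10 and NDUFS1 were the members called in the same direction in both.

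With BIBR1532, NDUFA5 and NDUFS4 fell in A375 and no member rose. These 2 of 32 members compare with 15.8% called in either direction and 7.29% called lower among all genes. NDUFA5 had 7.58 and 7.66 CPM with BIBR1532, against 17.4 and 46.3 CPM in the control (log2 fold change -2.05 ± 0.58, adjusted p = 0.0295). NDUFS4, an accessory subunit of the matrix arm whose loss causes Leigh syndrome, had 5.11 and 4.27 CPM with BIBR1532, against 7.78 and 16.6 CPM in the control (log2 fold change -1.36 ± 0.43, adjusted p = 0.0465). In both genes the treated libraries were close together and below both controls, while the controls differed more than 2-fold from each other. Without control replicate 2 neither passed, with log2 fold changes of -1.19 (adjusted p = 0.281) for NDUFA5 and -0.73 (adjusted p = 0.289) for NDUFS4. Nor did either pass without a BIBR1532 library of A375 (adjusted p between 0.194 and 0.274) or a 6-thio-dG library of LOX-IMVI BR (between 0.0504 and 0.0699), and NDUFS4 did not pass without any other LOX-IMVI BR library (between 0.0695 and 0.07). Removing the GC trend gave -0.53 (adjusted p = 0.166) for NDUFA5 and -0.83 (adjusted p = 0.112) for NDUFS4. In the A375 libraries alone 0 of 31 members were called, against 3.85% of all genes.

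Core subunits in A375 with BIBR1532 did not pass. NDUFS1 had 59.6 and 80.0 CPM with BIBR1532, against 107 and 111 CPM in the control, without overlap (log2 fold change -0.64 ± 0.35, adjusted p = 0.222). NDUFV1 had 170 and 154 CPM against 141 and 321 CPM, so that the treated libraries lay between the controls. NDUFB10 had 173 and 165 CPM with BIBR1532, above both controls at 89.4 and 127 CPM. Groups did not overlap in 10 of 32 members, against 57% of all genes. The member median was -0.51 and that of symbol-named genes -0.15. Without control replicate 1 the member median was -0.98, against -0.16 for symbol-named genes. Without control replicate 2 it was 0.21, against 0.01. The members called in this comparison also depended on which of these libraries was left out.

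Within the structural groups, the tested members of A375 with 6-thio-dG had a median log2 fold change of -0.52 in the 7 core matrix arm genes, -0.55 in the 8 accessory matrix arm genes, -0.02 in the 7 proximal membrane arm genes and -0.17 in the 9 distal membrane arm genes. With BIBR1532 in A375 these medians were -0.51, -0.67, -0.35 and -0.51. The distal membrane arm held the widest range with 6-thio-dG, between -0.97 for NDUFB8 and 1.43 for NDUFB10. The typical SE of a single member was 0.36 in both comparisons, and both use the same control libraries. NDUFA4, outside these groups, had 0.0835 and 0.0672 CPM with 6-thio-dG and 0.135 and 0 CPM with BIBR1532, against 0.374 and 0.272 CPM in the A375 control, at or near the limit of counting throughout.

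**Figure D4:**
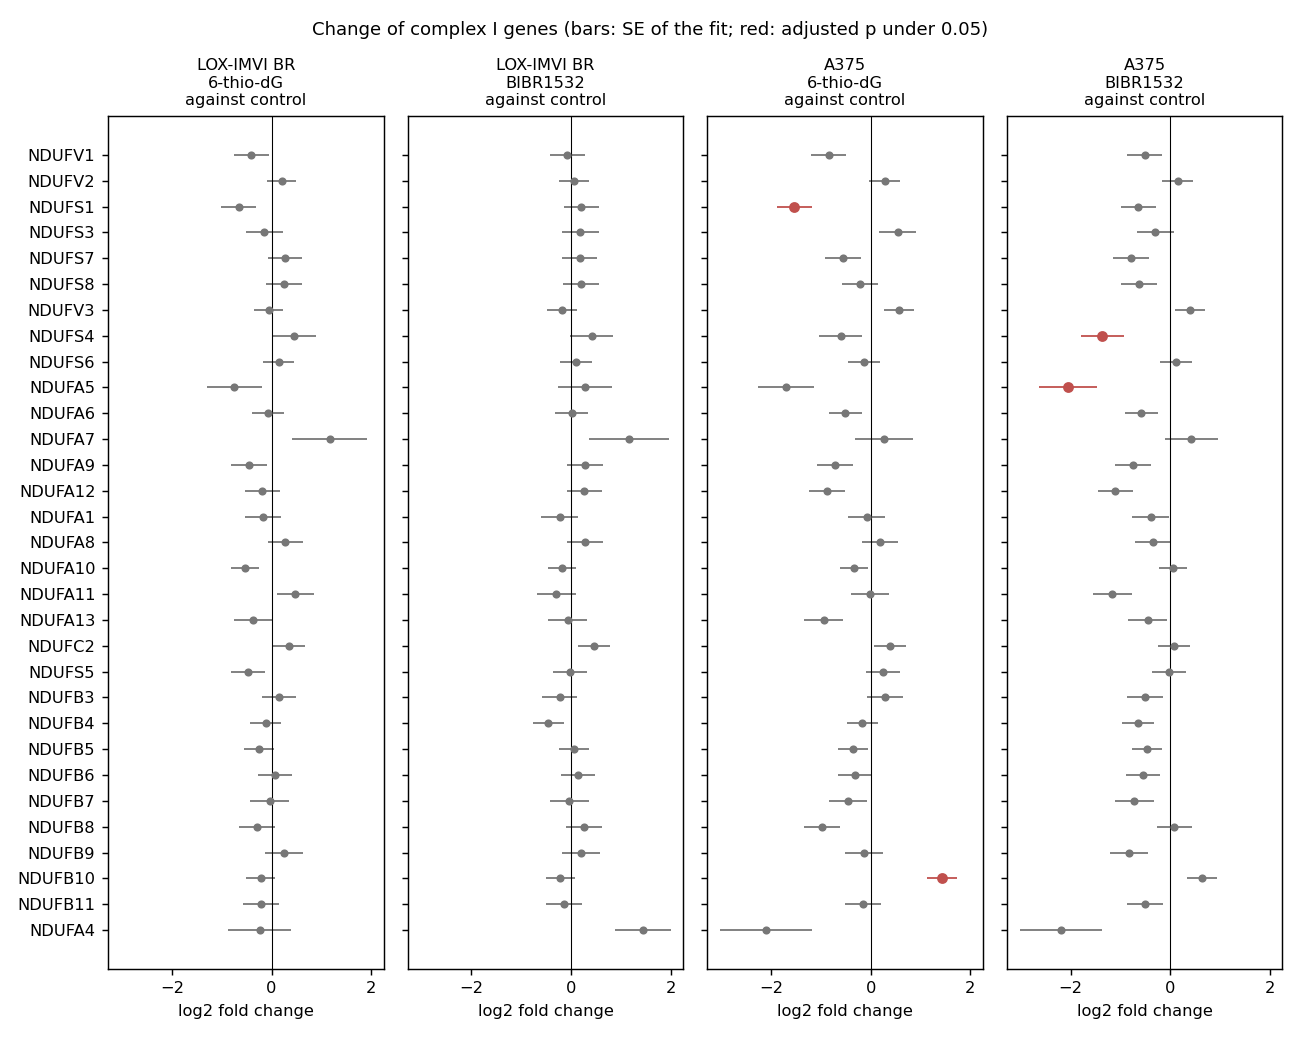
Log2 fold change of 31 of the tested members against the control of its line, with the SE of the fit (bars), for 6-thio-dG and BIBR1532 in LOX-IMVI BR and in A375. Red points had an adjusted p under 0.05 over all genes tested, namely NDUFB10 and NDUFS1 with 6-thio-dG and NDUFA5 and NDUFS4 with BIBR1532, all in A375.

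In LOX-IMVI BR, 6-thio-dG changed no member past the threshold in the fit of all 12 libraries. None of 32 was called by edgeR, against 17% of all genes, and 0 had an unadjusted p under 0.05; DESeq2 called 0. The replicates of this line lay close together, and most members did not overlap between groups: 28 of 32, against 74.4% of all genes. NDUFS1 had 62.4 and 62.2 CPM with 6-thio-dG, against 103 and 94.8 CPM in the control. NDUFA5 had 29.2 and 27.8 CPM against 45.1 and 50.7 CPM. Both genes were lower in both treated libraries than in either control. NDUFA10, an accessory subunit of the proximal membrane arm, had 30.6 and 33.9 CPM against 47.0 and 46.5 CPM. NDUFA11, a subunit next to the core of the membrane arm, had 21.9 and 19.4 CPM against 14.9 and 14.7 CPM, higher in both treated libraries. NDUFS1 passed without either 6-thio-dG library of A375 (adjusted p = 0.0216 and 0.0213), fits in which the spread shared by the lines was estimated without that library.

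The fit of all libraries estimates the spread over both lines, and the biological coefficient of variation was 25.8% there, 36.1% in A375 alone and 4.55% in LOX-IMVI BR alone. In LOX-IMVI BR alone, 19 of 31 members were called with 6-thio-dG, against 62.8% of all genes. Of these, 7 were higher (32% of all genes) and 12 lower (30.8% of all genes). In that fit the log2 fold change was -0.65 ± 0.06 for NDUFS1 (adjusted p = 2.22e-11) and -0.74 ± 0.07 for NDUFA5 (adjusted p = 2e-10). It was 0.49 ± 0.10 for NDUFA11 (adjusted p = 9.02e-05) and 0.36 ± 0.08 for NDUFC2, an accessory subunit of the membrane arm (adjusted p = 0.000433). With GC offsets in the same fit, which covers symbol-named genes alone, 14 members were higher (43.1% of those genes) and 6 lower (30%). Without the offsets, 26.3% of symbol-named genes were higher and 45.8% lower in this line alone. Members lower in both included NDUFS1, NDUFA5, NDUFA9, NDUFA10 and NDUFS5, and 7 were higher in both, among them NDUFA11, NDUFC2 and NDUFS4. The member median over all 12 libraries was -0.14, and that of symbol-named genes -0.13.

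With BIBR1532 in LOX-IMVI BR no member passed the threshold either. In the fit of all 12 libraries 0 of 32 were called by edgeR, against 3.59% of all genes, and 1 had an unadjusted p under 0.05, the sparse NDUFA4. DESeq2 called 0. NDUFS1 had 113 and 114 CPM with BIBR1532, against 103 and 94.8 CPM in the control. NDUFB4, an accessory subunit of the distal membrane arm, had 41.9 and 43.2 CPM with BIBR1532, against 59.6 and 57.8 CPM in the control. NDUFC2 had 28.4 and 27.0 CPM against 19.6 and 20.6 CPM. NDUFB4 was lower and NDUFC2 higher without overlap. In LOX-IMVI BR alone, 16 of 31 members were called, against 44.8% of all genes, with 7 higher (23.1% of all genes) and 9 lower (21.8% of all genes). The log2 fold change there was -0.52 ± 0.06 for NDUFB4 (adjusted p = 5.45e-08) and 0.40 ± 0.09 for NDUFC2 (adjusted p = 0.000289). With GC offsets, over symbol-named genes alone, 5 were higher (27.3% of those genes) and 7 lower (31.6%), NDUFB4 and NDUFC2 among them. Without the offsets, 30.2% of symbol-named genes were higher and 28.4% lower in this line alone. Groups did not overlap in 24 of 32 members, against 62.9% of all genes, and the member median was 0.08, against 0.09 for symbol-named genes. By structural group the medians in LOX-IMVI BR with 6-thio-dG were -0.15 for the core matrix arm, -0.06 for the accessory matrix arm, -0.17 for the proximal and -0.12 for the distal membrane arm. With BIBR1532 they were 0.17, 0.27, -0.07 and -0.04. NDUFB10 had 157 and 162 CPM with 6-thio-dG and 148 and 171 CPM with BIBR1532, against 193 and 178 CPM in the control.

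The compounds were also set against each other within each line, at the different doses used. In A375 0 of 32 members were called between 6-thio-dG and BIBR1532, against 16% of all genes. At an unadjusted p under 0.05, 4 were higher and 2 lower with 6-thio-dG, and DESeq2 called 1. NDUFA11 had 29 and 15.7 CPM with 6-thio-dG, against 10.4 and 9.79 CPM with BIBR1532 (log2 fold change 1.14 ± 0.39, adjusted p = 0.0587). NDUFB8, an accessory subunit of the distal membrane arm, had 14.0 and 8.53 CPM with 6-thio-dG, against 23.6 and 23.0 CPM with BIBR1532 (log2 fold change -1.05 ± 0.36, adjusted p = 0.061). With GC offsets both passed, at 1.22 (adjusted p = 0.00436) for NDUFA11 and -0.91 (adjusted p = 0.012) for NDUFB8. The controls are not part of this comparison but enter the shared spread: without A375 control replicate 1, 5 members were called higher (8.7% of all genes) and 1 lower (11.3%), and without replicate 2 likewise 5 (8.65%) and 1 (11.2%). These were NDUFA11, NDUFB10, NDUFB3, NDUFB9 and NDUFS3 higher and NDUFB8 lower in both fits. In LOX-IMVI BR NDUFA4 was called lower with 6-thio-dG than with BIBR1532, against 20.6% of all genes in either direction and 10.7% called lower. Its levels were 0.241 and 0.241 CPM with 6-thio-dG and 0.891 and 0.702 CPM with BIBR1532 (log2 fold change -1.68 ± 0.55, adjusted p = 0.0414), near the limit of counting in both groups. The call was lost when any LOX-IMVI BR library was left out (adjusted p between 0.0618 and 0.207). NDUFA11 had 21.9 and 19.4 CPM with 6-thio-dG in this line, against 13.2 and 11.0 CPM with BIBR1532 (log2 fold change 0.78 ± 0.39, adjusted p = 0.176; 0.89 with GC offsets, adjusted p = 0.0161). NDUFA11 thus had more CPM with 6-thio-dG than with BIBR1532 in both lines, without overlap of the libraries. This was not particular to NDUFA11, as NDUFB3 and NDUFB4 were also higher in both lines without overlap. In A375, 14 of 32 members were higher and 5 lower without overlap, against 25.8% and 26.3% of all genes. In LOX-IMVI BR, 6 were higher and 16 lower, against 37.6% and 36.9% of all genes. NDUFA10, NDUFA13, NDUFB8, NDUFS1 and NDUFV1 were lower with 6-thio-dG in both lines without overlap.

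Whether a compound acted differently on the lines was tested as an interaction. For 6-thio-dG 1 of 32 members was called, against 5.54% of all genes in either direction and 3.06% called lower. This was NDUFB10, which had 157 and 162 CPM with 6-thio-dG against 193 and 178 CPM in the control of LOX-IMVI BR, and 353 and 229 CPM against 89.4 and 127 CPM in A375. The effect in LOX-IMVI BR minus that in A375 was -1.64 ± 0.42 (adjusted p = 0.0332). It was -1.41 (adjusted p = 0.0302) without A375 control replicate 1 and -1.92 (adjusted p = 0.00865) without replicate 2, and it passed without either 6-thio-dG library of A375. With replicate number as a block it did not pass (-1.63, adjusted p = 0.0851). Nor did it pass when any LOX-IMVI BR library or any BIBR1532 library of A375 was left out, where the difference lay between -1.70 and -1.46 and the adjusted p between 0.0661 and 0.169. Without A375 control replicate 1, NDUFS7 was also called, with a higher effect in LOX-IMVI BR (2 of 32 members in all, against 8.48% of all genes), and without replicate 2 NDUFS3 and NDUFS5 with a lower one (3 of 32, against 7.84%). For NDUFS1 the difference was 0.86 ± 0.50 (adjusted p = 0.367), so its lower level with 6-thio-dG was not shown to differ between the lines. For BIBR1532, 0 of 32 members were called by edgeR, against 3.64% of all genes, 4 had an unadjusted p under 0.05, all higher, and DESeq2 called 0. Without A375 control replicate 1, 8 of 32 members were called higher, against 3.6% of all genes, and the member median was 0.92, against 0.29 for symbol-named genes. These were NDUFA9, NDUFA12, NDUFB6, NDUFB7, NDUFB9, NDUFS4, NDUFS7 and NDUFS8, with differences between 1.16 for NDUFB6 and 2.22 for NDUFS4. Without replicate 2 none was called, against 4.13% of all genes, and the member median was -0.20, against 0.11 for symbol-named genes. With all libraries the medians were 0.50 and 0.26. NDUFA5 had a difference of 2.33 ± 0.79 (adjusted p = 0.109) and NDUFS4 one of 1.77 ± 0.61 (adjusted p = 0.113).

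Under control conditions the lines themselves were compared. In LOX-IMVI BR 11 of 32 members were lower than in A375 and 1 was higher, against 49.8% of all genes called, 28.8% lower and 21.1% higher. NDUFB7 had 51.1 and 48.5 CPM in LOX-IMVI BR, against 115 and 341 CPM in A375 (log2 fold change -2.20 ± 0.40, adjusted p = 0.000393). NDUFA13, a membrane arm subunit also known as GRIM19, had 51.6 and 47.7 CPM in LOX-IMVI BR, against 86.3 and 247 CPM in A375 (log2 fold change -1.75 ± 0.40, adjusted p = 0.00213). In both the LOX-IMVI BR libraries nearly coincided and lay below both A375 libraries. They were called lower without either A375 control, at -1.21 for NDUFB7 and -0.79 for NDUFA13 without replicate 2, and they stayed called under each left-out library and with GC offsets, where the log2 fold changes were -1.63 and -1.0.

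**Figure D5:**
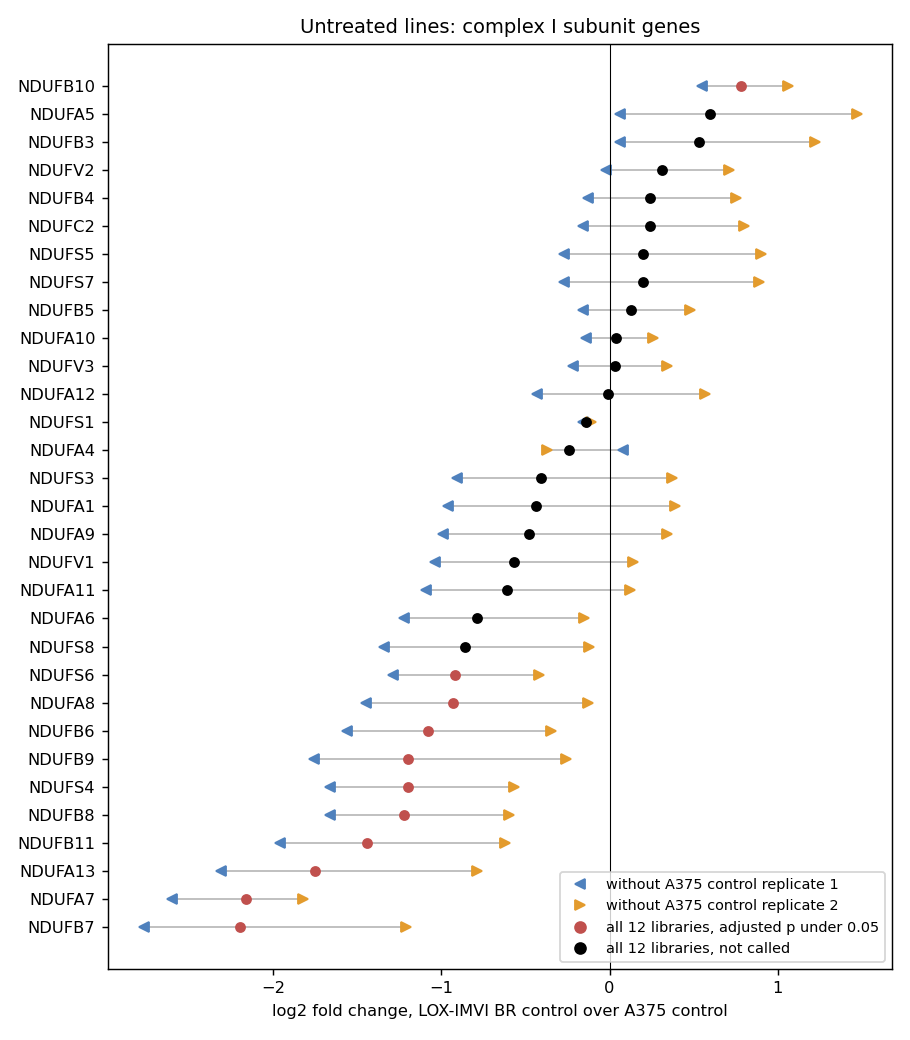
Log2 fold change of 31 of the tested members, LOX-IMVI BR control over A375 control, with all 12 libraries (circles, red where the adjusted p was under 0.05), without A375 control replicate 1 (blue triangles) and without replicate 2 (orange triangles). NDUFB7 and NDUFA13 were lower in LOX-IMVI BR in all 3 fits, while members near the middle changed sign with the control library left out.

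Further members called lower in LOX-IMVI BR were NDUFB11 at -1.44, NDUFB8 at -1.22, NDUFB9 at -1.20, NDUFS4 at -1.20, NDUFB6 at -1.08, NDUFA8 at -0.93 and NDUFS6 at -0.92 on the log2 scale, with adjusted p between 0.00458 and 0.0438, and NDUFA7, with few counts, at -2.16 (adjusted p = 0.0217). NDUFB11 had 97.9 and 93.2 CPM in LOX-IMVI BR, against 147 and 373 CPM in A375. None of these 8 was called without A375 control replicate 2, where the log2 fold change was -0.62 for NDUFB11, -0.60 for NDUFB8, -0.26 for NDUFB9, -0.57 for NDUFS4, -0.35 for NDUFB6, -0.13 for NDUFA8, -0.42 for NDUFS6 and -1.82 for NDUFA7 (adjusted p between 0.0523 and 0.708). NDUFB10 was the member called higher in LOX-IMVI BR, with 193 and 178 CPM against 89.4 and 127 CPM in A375 (log2 fold change 0.78 ± 0.30, adjusted p = 0.0405), and it was not called without A375 control replicate 1 (adjusted p = 0.116). Without either LOX-IMVI BR control fewer members were called lower, and NDUFB10 was no longer called. The log2 fold change of NDUFB7 was -2.23 without control replicate 1 and -2.15 without replicate 2. That of NDUFA13 was -1.8 and -1.68. By position, 5 of 9 tested genes of the distal membrane arm were lower and 1 higher, 3 of 8 accessory matrix arm genes were lower, and 2 of 7 of the proximal membrane arm. Among the core genes that did not pass, NDUFS1 had 103 and 94.8 CPM in LOX-IMVI BR, against 107 and 111 CPM in A375, and NDUFV2 had 8.74 and 8.33 CPM against 5.23 and 8.69 CPM. NDUFV1 had 153 and 157 CPM in LOX-IMVI BR, between the A375 libraries at 141 and 321 CPM, and likewise NDUFS3 had 37.5 and 35.6 CPM between 28.5 and 68.9 CPM and NDUFS7 21.7 and 21.6 CPM between 11.7 and 26.3 CPM. NDUFS8 had 65.9 and 65.3 CPM in LOX-IMVI BR, below both A375 libraries at 71.4 and 167 CPM (adjusted p = 0.0584).

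The member median was -0.46, that of symbol-named genes -0.17, and 15 of 32 members did not overlap, against 75.5% of all genes. Without A375 control replicate 1 the member median was -0.98, against -0.18 for symbol-named genes. Without replicate 2 it was 0.13, against -0.06. The members called also depended on which of these libraries was left out. NDUFB7 and NDUFA13 were among the members lower in both of these fits.

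Genes that build complex I or belong to the other respiratory complexes are given from lists by complex. Of 16 tested assembly factors, counted with the acyl carrier NDUFAB1, 1 was lower in A375 with 6-thio-dG and 2 with BIBR1532, against 18.1% and 15.8% of all genes called in either direction. NDUFAF4, an assembly factor of the matrix arm, had 1.5 and 2.82 CPM with 6-thio-dG and 1.70 and 2.08 CPM with BIBR1532, against 9.23 and 16.6 CPM in the A375 control (log2 fold change -2.54 ± 0.39, adjusted p = 0.000945 and -2.75 ± 0.39, adjusted p = 0.000404). It had 12.6 and 11.6 CPM with 6-thio-dG and 14.6 and 10.6 CPM with BIBR1532, against 8.84 and 8.60 CPM in the LOX-IMVI BR control, and its effect differed between the lines for both compounds, by 3.02 ± 0.52 (adjusted p = 0.00393) and 3.28 ± 0.52 (adjusted p = 0.00428). TMEM126B, an assembly factor of the membrane arm, was called lower with BIBR1532 in A375 (log2 fold change -1.66 ± 0.44, adjusted p = 0.0213). Of 8 genes of complex III, UQCRC2 was lower in A375 with 6-thio-dG and UQCRB with BIBR1532, and of 12 genes of complex V ATP5F1 was lower with BIBR1532. None of 4 genes of complex II or 6 of complex IV was called with either compound in A375. Without A375 control replicate 1, more genes were called lower with either compound in the assembly list and in each of complexes II to V. Without replicate 2 fewer of them were called lower with either compound than without replicate 1, and a few were called higher. These calls describe dependence on the control library left out and give no result about the complexes. NDUFAF4 was called lower with both compounds in both of these fits, while TMEM126B, UQCRB and ATP5F1 were not called with BIBR1532 without replicate 2. In LOX-IMVI BR no gene of the assembly or complex II to V lists was called against the control in the fit of all 12 libraries. In that line alone 3 assembly genes were higher and 4 lower with 6-thio-dG, 1 and 5 of complex III and none and 8 of complex V, against 32% and 30.8% of all genes. With BIBR1532 there 2 assembly genes were higher and 5 lower, 1 and 1 of complex III and 1 and 6 of complex V, against 23.1% and 21.8%. Of 13 tested regulators of mitochondrial gene expression, TFB2M, a mitochondrial transcription factor, and MYC were lower in A375 with both compounds (TFB2M with 6-thio-dG had an adjusted p of 0.0568 without A375 control replicate 1), C10orf2, the mitochondrial helicase, was higher in LOX-IMVI BR with 6-thio-dG, and MYC was higher there with BIBR1532. Between the untreated lines, 6 of 16 assembly genes, 2 of 4 of complex II, 4 of 8 of complex III, 3 of 6 of complex IV and 6 of 12 of complex V were lower in LOX-IMVI BR, against 28.8% of all genes, and 1 of complex III, UQCR11, was higher. Without A375 control replicate 2 fewer assembly, complex III, complex IV and complex V genes were called lower, and as many of complex II. A few assembly, complex III and complex V genes were then called higher. These calls too describe dependence on that library and give no result about the complexes.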

How the data were processed

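The authors deposited 1 table of whole-number counts per gene for the 12 libraries, not normalized. The submitters' processing notes name STAR, Picard, GATK, featureCounts 1.5.1 and the builds hg19 and GRCh37, without the role of each. Of the 75253 rows, 54072 had NONCODE identifiers, and 4 rows with 2 ambiguous date names were dropped. Columns were assigned by sample title. Library totals ran between 11813388 and 25822381 counts, and the limit of 3 counts covers counting error only.

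Genes were filtered with filterByExpr, scaled by TMM and tested with edgeR 4.0.16 (R 4.3.3, limma 3.58.1) by robust quasi-likelihood, with 1 mean per line and treatment over all 12 libraries and 6 residual degrees of freedom. In A375 this shared spread is smaller than that of the line itself. P-values were adjusted by Benjamini-Hochberg over all 29114 genes tested in each of 9 comparisons, and a gene was called under 0.05. CPM are TMM-scaled. Alternatives were DESeq2 1.42.0, other scaling factors and filters, fits of a line or of symbol rows alone, a replicate block, GC or length offsets (GENCODE v29) and each library left out. The fit of a line alone with GC offsets was added after seeing the data. The code was tested on simulated data. Levels per kilobase use the median length of coding transcripts in GENCODE.

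Named genes were the core subunits, NDUFA4 and up to 10 called members per comparison, with up to 3 called genes per pathway list. NDUFA5, NDUFA8, NDUFA9, NDUFA10, NDUFA11, NDUFB4, NDUFC2 and others outside this rule were named after their values were seen. The members and lists were chosen with earlier results of these data known. The values of 1 member are not reported here and it is left off the plots by gene, while counts and medians cover all members.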

Additional observations from a re-analysis of the deposited data

Results flagged for a closer look

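The effect of 6-thio-dG on NDUFB10 differed between the lines by an interaction test: the log2 effect in LOX-IMVI BR minus that in A375 was -1.64 ± 0.42 SE (edgeR adjusted p = 0.0332). Its level was higher with 6-thio-dG than in the control in both treated A375 libraries, at 353 and 229 CPM against 89.4 and 127 CPM, and lower in both treated LOX-IMVI BR libraries, at 157 and 162 CPM against 193 and 178 CPM. With GC offsets the difference was -1.38 (adjusted p = 0.000886). With replicate number as a block it was -1.63 and did not pass (adjusted p = 0.0851). Nor did it pass when any LOX-IMVI BR library or any BIBR1532 library of A375 was left out (adjusted p between 0.0661 and 0.169). Why the lines differed was not tested.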

How the results depend on the processing

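Counts of members called are given as higher and lower. In this section they stand without the share of all genes called in the same setting. They therefore describe dependence on the setting and give no result about the members. In LOX-IMVI BR alone, 62.8% of all genes were called with 6-thio-dG and 44.8% with BIBR1532, each against the control. In A375 with 6-thio-dG, 1 higher and 1 lower became 2 and 2 with upper-quartile factors, 1 and 3 by DESeq2, 1 and 5 with no low-count filter, 1 and 2 at 1 CPM in 2 libraries, 0 and 0 in the line alone, 3 and 5 with GC offsets and 5 and 1 with length offsets. With BIBR1532 in A375, 0 and 2 became 0 and 1 with DESeq2 or upper-quartile factors, 0 and 4 by the DESeq2 test, 0 and 0 at 1 CPM in 2 libraries, in symbol rows alone and in the line alone with or without GC offsets, 1 and 4 with GC offsets and 1 and 1 with length offsets. In LOX-IMVI BR, 0 and 0 became 7 and 12 (6-thio-dG) and 7 and 9 (BIBR1532) in the line alone, and 14 and 6 and 5 and 7 with GC offsets added. Between compounds in A375, 0 and 0 became 1 and 0 with upper-quartile factors, 0 and 1 with DESeq2 size factors, the DESeq2 test or 1 CPM in 2 libraries, 0 and 2 with no filter, 2 and 0 in symbol rows alone, 5 and 2 with GC offsets, 3 and 2 with length offsets and 1 and 0 in the line alone with GC offsets. Between compounds in LOX-IMVI BR, 0 and 1 became 0 and 0 with upper-quartile factors, the DESeq2 test, 1 CPM in 2 libraries or symbol rows alone, 0 and 2 with no filter, 4 and 13 in the line alone, 1 and 0 with GC or length offsets and 18 and 5 in the line alone with GC offsets. For the BIBR1532 interaction, 0 and 0 became 3 and 0 with no filter and 1 and 1 with GC offsets. Between the controls, 1 and 11 became 0 and 11 with upper-quartile factors, 2 and 10 with GC offsets and 6 and 5 with length offsets. The cause of these changes was not tested. No member called in the fit of all 12 libraries changed sign under any setting run. Of members not called there, NDUFB9 with 6-thio-dG in A375 was called lower (-0.71) without A375 control replicate 1 and higher (0.79) without replicate 2, and NDUFB5 between compounds in LOX-IMVI BR lower (-0.24) in the line alone and higher (0.25) with GC offsets added. The member median changed sign in at least 1 setting in each comparison, between -0.70 and 0.37 in A375 with 6-thio-dG and between -0.98 and 0.21 with BIBR1532.

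Leaving out 1 library gave between 1 and 6 higher and 1 and 12 lower members in A375 with 6-thio-dG, 0 to 1 and 0 to 19 with BIBR1532, 0 and 0 to 2 in LOX-IMVI BR with 6-thio-dG, 0 and 0 with BIBR1532, 0 to 5 and 0 to 1 between compounds in A375, 0 and 0 to 3 between compounds in LOX-IMVI BR, 0 to 3 and 0 to 3 for the 6-thio-dG interaction, 0 to 8 and 0 for that of BIBR1532, and 0 to 7 and 3 to 18 between the controls. Where a group was left with 1 library, it was assumed to vary like the others.

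Replicate numbers did not pair the libraries (correlations of deviations between -0.1 and 0.265). With a replicate block, lower members in A375 with 6-thio-dG became 2, those between compounds in LOX-IMVI BR 0, those of the 6-thio-dG interaction 0, and the higher member between the controls 0. The block with GC offsets gave 2 and 4, and 1 and 5, against control in A375, 3 and 2 between compounds there, 1 and 0 between compounds in LOX-IMVI BR, 1 and 1 for the BIBR1532 interaction and 2 higher between the controls.

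With 2 libraries a group and a shared spread, the median SE of a member was 0.35 to 0.36 on the log2 scale between 2 groups. It was 0.5 for the interactions, and NDUFA4 and NDUFA7 are limited by depth.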
